A study of Mus musculus with 8 samples.

Results

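Interleukins and interleukin receptors were examined in the livers of mice that express a permanently active IKK2 kinase in hepatocytes. A gene was included when an array probe set was annotated to exactly 1 symbol beginning with Il and a digit, and was read from its brightest such probe set by the mean of the 8 arrays. Il1a, Il1b, Il1rn, Il6, Il6ra, Il6st, Il18 and Il34 were left out by the same rule. This gave 68 of the 19938 genes measured, made up of 32 ligands, 34 receptor chains and 2 others, the binding protein Il18bp and the antisense RNA Il1bos. Il1r1, Il1rl1, Il2rg, Il22 and Il11ra1 were not analysed here. The 4 transgenic mice express caIKK2, constitutively active IKK2, from the LAP promoter, a promoter used for expression in hepatocytes, and are named after it. The other 4 mice are wild type controls. All 8 mice were 4 weeks old and came from a mixed C57BL/6 and NMRI stock that had been crossed back to C57BL/6 at least 4 times, and each liver has its own Affymetrix array, with 1 log2 expression value per probe set.

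Interleukins are secreted proteins by which leukocytes, epithelia and stromal cells signal to each other. Each binds a receptor on the target cell that is built from several chains, some private to a cytokine and some shared between cytokines, and most of these receptors signal through Jak kinases and Stat factors. Receptors of the IL-1 and IL-17 families instead use adaptors that lead to NF-kB, the transcription factor that IKK2 switches on. In the liver, hepatocytes respond to several interleukins, while much of the receptor repertoire belongs to resident macrophages, lymphocytes and recruited leukocytes.

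Ikbkb, the gene of IKK2, was higher in the 4 caIKK2 livers, at 8.38 to 9.09 against 7.44 to 7.85 in the controls (log2 fold change 1.00, SE 0.18, limma adjusted p = 0.0185). Array medians lay between 4.88 and 5.08. Hepatocyte markers were at control means of 10.2 to 13.6 in 7 of 7 measured genes, and 0 of them passed the test between groups, while 1 passed at an unadjusted p under 0.05. Of all 19938 genes, 932 were called higher (4.67%) and 333 lower (1.67%) at an adjusted p under 0.05. Higher genes made up 73.7% of the calls as deposited, 62.6% after quantile normalization and 86.4% when array medians were aligned. The labels call the arrays biological replicates, so each p-value sets a difference against the variation from animal to animal, and the 8 arrays limit the precision.

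Calls were made among the receptors and not among the ligands. Of 34 receptor chains 6 rose in caIKK2 liver (17.6%, against 4.67% of all genes), 0 fell and 28 did not pass. Of 32 ligands 0 passed in limma's test, and at an unadjusted p under 0.05 there were 5 higher and 7 lower, beside 15.3% of all genes higher, 18.3% lower and 33.6% in either direction. Il18bp rose as well, so that 7 of the 68 genes were called (10.3%, against 6.34% of all genes), all higher. The chains that rose were Il1rl2, Il10ra, Il10rb, Il2rb, Il7r and Il13ra1, with increases from 1.57-fold to 3.20-fold. The median log2 fold change was 0.01 over the receptors and -0.11 over the ligands, beside -0.07 over all genes. The difference between ligands and receptors was not tested. In control liver 30 of the 32 ligands read under the middle of all genes, a range in which 2.91% were called higher. The ligand count was 1 after quantile normalization and 0 to 3 when 1 array was left out. In whole liver, more cells of a type and more RNA per cell cannot be told apart. These counts depend on which arrays are kept: 0 genes of the 68 were called without caIKK2 replicate 1, control replicate 2 or control replicate 3, 3 without control replicate 1 or 4, and 12 without caIKK2 replicate 3. With all deposited probe sets in the test, or against a minimum change of 1.2-fold, the calls of Il10ra, Il10rb and Il18bp remained. The log2 fold changes of the 7 genes stayed above 0 in each of the 19 alternative settings in which they were measured. Every caIKK2 array lies above every control for these 7 genes. Leaving out an array or changing the test could therefore not have turned the sign, and the kept sign adds no support.

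**Figure D1:**
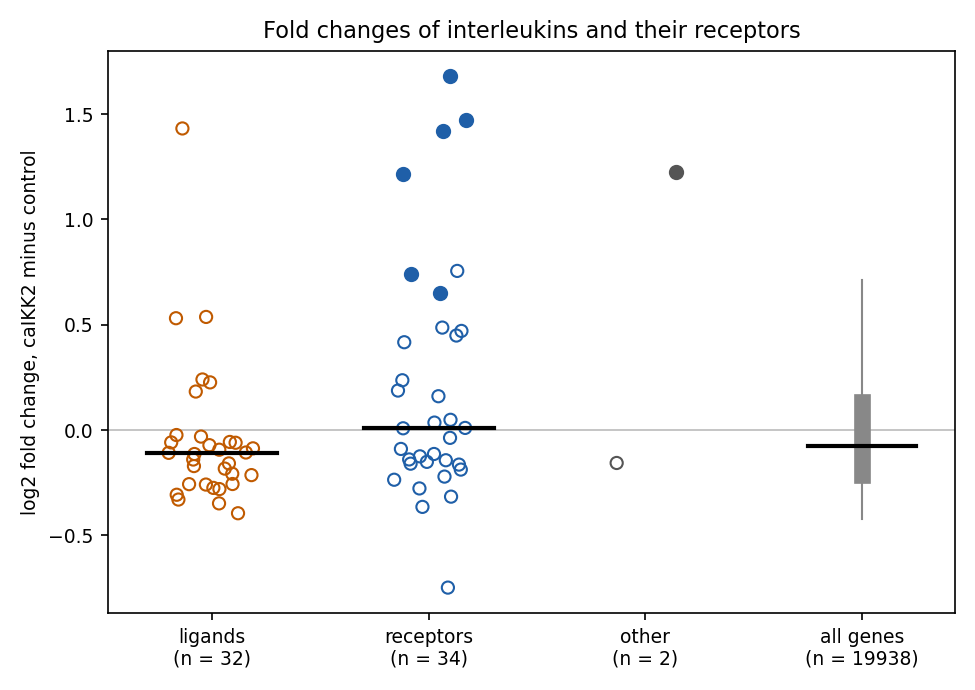
Log2 fold change (caIKK2 minus control) of each ligand, receptor and other gene, 1 point per gene, filled where the gene passed at an adjusted p under 0.05, with black bars at the medians. For all genes the thick bar spans the 25th to 75th percentile (-0.21 to 0.13) and the thin line the 5th to 95th (-0.42 to 0.71). The filled receptor points lie between 0.65 and 1.68, and 0 ligand points are filled.

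Signal strength differed between the 2 roles. The middle of all genes in control liver was 5.53, and 2 of the 32 ligands and 12 of the 34 receptors read at or above it. An array reading depends on the probes as well as on the transcript, so this places a probe set within the array and does not rank genes. Among genes under that middle value the median log2 fold change was -0.12 and 2.91% were called higher, and among those above it 0.03 and 6.44%. Receptors under the middle value had 4 of 22 called, and those above it 2 of 12. For the 30 ligands under it the median was -0.11, close to the value for all genes of that range. Of the ligands, 26 had a negative log2 fold change as deposited, 22 after quantile normalization and 20 when array medians were aligned. These are 81.2%, 68.8% and 62.5% of the ligands, beside 61.6%, 61.3% and 48.9% of all genes. Among all genes under the middle value, 7595 of 9969 were negative as deposited.

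**Figure D2:**
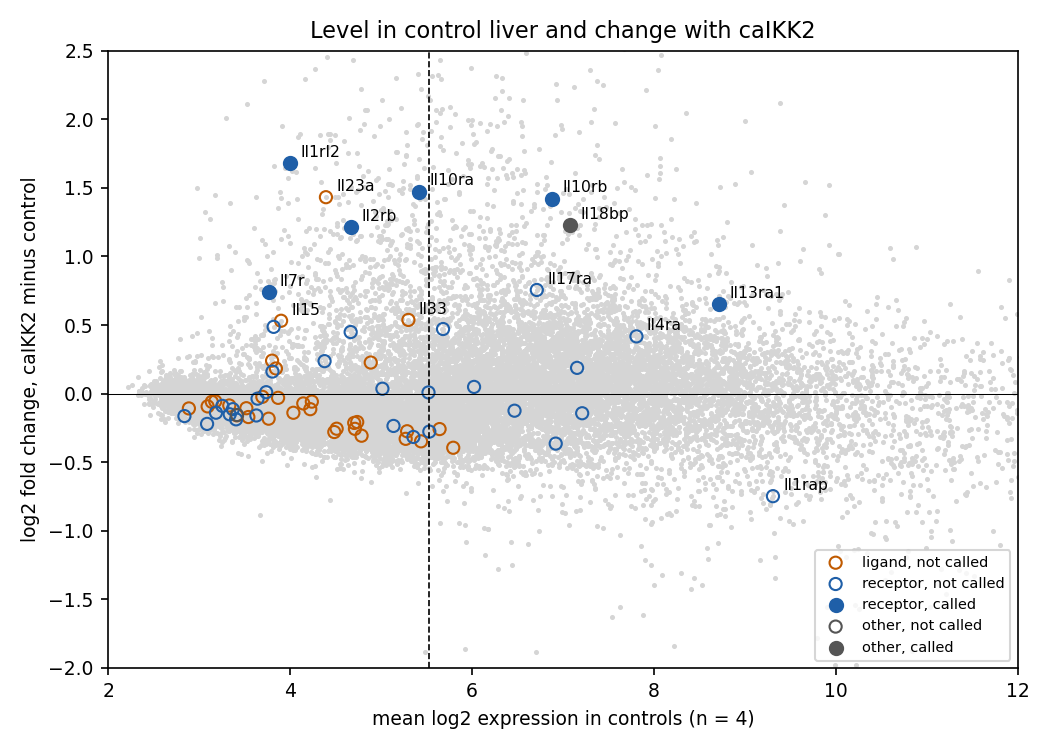
Mean log2 expression in the 4 controls (horizontal) against log2 fold change (vertical) for ligands, receptors and others over all genes in grey; 145 genes lie outside the axes. The dashed line marks the middle of all genes in control liver, 5.53; most ligands lie left of it and near or just below 0, and the called receptors spread over control levels from 3.76 to 8.71.

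The chains of the IL-10 receptor rose together. IL-10 restrains inflammatory activation of macrophages and other leukocytes. Il10ra, the chain that binds IL-10, read 7.04, 7.64, 6.39 and 6.49 in caIKK2 replicates 1 to 4 and 5.54, 5.38, 5.36 and 5.37 in controls 1 to 4. The groups do not overlap, and caIKK2 replicates 1 and 2 stand above replicates 3 and 4. This is a log2 fold change of 1.47 with an SE of 0.24, or 2.78-fold (adjusted p = 0.0125). Il10rb, a chain shared by the receptors of IL-10, IL-22 and the lambda interferons, read 8.47, 8.98, 7.78 and 7.97 against 7.01, 6.82, 6.70 and 6.99. The order among the caIKK2 livers was similar, and the rise was 1.42 ± 0.23 (SE) in log2 units, 2.68-fold (adjusted p = 0.0125). Both lost the call without caIKK2 replicate 1 (adjusted p = 0.0551 for each) or without control replicate 2 (0.0561 and 0.0565) or control replicate 3 (0.0514 and 0.0521). The cytokine itself gave no such reading: Il10 was at 3.16 to 3.33 in caIKK2 liver and 3.26 to 3.57 in the controls, with a log2 fold change of -0.16 (95% interval -0.365 to 0.048). These groups overlap, at a signal near the low end of the array.

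Il1rl2 had the largest rise of the 68 genes. It encodes the receptor of the IL-36 cytokines, members of the IL-1 family that act on epithelia and dendritic cells. It read 5.79, 6.92, 4.70 and 5.31 in caIKK2 liver and 4.05, 3.90, 3.80 and 4.24 in the controls. The caIKK2 livers spread widely (5.68 ± 0.94, SD, n = 4) next to the controls (4.00 ± 0.19, SD, n = 4), and every caIKK2 liver lies above every control. The rise was 1.68 ± 0.38 (SE) in log2 units, 3.20-fold (adjusted p = 0.0385). Its call was lost without caIKK2 replicate 1 (0.111) and without any of the controls (0.0753 to 0.107), and when array medians were aligned (0.0524). The IL-36 agonists Il1f6, Il1f8 and Il1f9 stood at log2 fold changes of -0.11, -0.09 and 0.18, and the antagonist Il1f5 and the related Il1f10 at -0.07 and -0.18. Il1f9 reached 4.63 in caIKK2 replicate 2 against 3.56 to 3.98 in the other caIKK2 livers, and without that array its value turned to -0.02. Il1f5 turned to 0.03 after quantile normalization and to 0.01 with arrays centred. Il1rap, the co-receptor that Il1rl2 shares with the IL-1 and IL-33 receptors, had the most negative log2 fold change of all 68 genes.

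Il1rap read 8.66, 7.87, 8.80 and 8.91 in caIKK2 liver and 9.44, 9.19, 9.17 and 9.43 in the controls. The groups do not overlap, and caIKK2 replicate 2 is the lowest. The difference was -0.75 (SE 0.21) and did not pass (adjusted p = 0.0585). It passed when the dimmest 30% or 50% of probe sets were left out (0.0484 and 0.0468), with array weights (0.0221) and without caIKK2 replicate 2, 3 or 4 (0.0225, just under 0.05, and 0.0334). Leaving out 1 array at a time moved the difference between -0.87 and -0.52.

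Receptor chains of the common gamma chain family gave 2 calls of 6. The cytokines of this family, among them IL-2, IL-7 and IL-15, keep lymphocytes alive and make them divide. Il2rb, the signalling chain shared by the receptors of IL-2 and IL-15, read 5.74, 6.77, 5.64 and 5.38 in caIKK2 liver and 4.73, 4.72, 4.49 and 4.75 in the controls. Replicate 2 stands highest, and the groups do not overlap. The rise was 1.21 ± 0.25 (SE) in log2 units, 2.32-fold (adjusted p = 0.0307). Il7r, the IL-7 receptor chain of lymphocytes, read 4.31, 4.99, 4.42 and 4.29 against 3.89, 3.97, 3.58 and 3.61. It rose by 0.74 on the log2 scale (SE 0.17), or 1.67-fold (adjusted p = 0.0373), and replicate 2 is again apart from the other caIKK2 livers. Both calls were lost without caIKK2 replicate 1 (0.0841 for each) and without any of the controls (0.0696 to 0.0941 for Il2rb and 0.0771 to 0.105 for Il7r). Il21r stood at 0.45, Il15ra at 0.19, the high-affinity IL-2 chain Il2ra at -0.11 and Il9r at -0.32, and these 4 did not pass. Among the family's ligands Il15 stood at 0.53 (adjusted p = 0.0702), Il7 at 0.24 and Il2 at -0.09. Il15 read 4.92 in caIKK2 replicate 2 and 4.21 to 4.297 in the others, just above the highest control at 4.12, and passed with array weights (0.0289) and with the replicate number as a block (0.0476).

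Il13ra1, the chain that completes the receptor for IL-13 and for IL-4 on non-lymphoid cells, read 9.38, 9.79, 9.14 and 9.15 in caIKK2 liver and 8.79, 8.72, 8.57 and 8.77 in the controls. The groups do not overlap, and the rise was 0.65 ± 0.14 (SE) in log2 units, 1.57-fold (adjusted p = 0.0360). The call was lost without caIKK2 replicate 1 (0.107), without any of the controls (0.0749 to 0.101) and when array medians were aligned (0.0502). Its partner chain Il4ra read 8.33, 8.41, 8.01 and 8.14 against 7.90, 7.56, 7.87 and 7.90, without overlap, and differed by 0.42 ± 0.12 (SE) in log2 units, which did not pass (adjusted p = 0.0603) except without caIKK2 replicate 3 (0.0418). The decoy receptor Il13ra2 stood at -0.09. The ligand Il13 stood at -0.31 (adjusted p = 0.0832) and passed without caIKK2 replicate 3 (0.0455). Il4 stood at -0.03 and turned to 0.06 after quantile normalization and to 0.05 with arrays centred.

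The antisense RNA Il1bos stood at -0.16 (adjusted p = 0.250). Il18bp is a secreted protein that binds IL-18 and keeps it from its receptor. It read 8.30, 8.96, 8.07 and 7.89 in caIKK2 liver and 7.20, 7.07, 7.11 and 6.94 in the controls. No caIKK2 liver overlaps with a control, and the rise was 1.23 ± 0.20 (SE) in log2 units, 2.34-fold (adjusted p = 0.0133). The call was lost without caIKK2 replicate 1 (0.0548), control replicate 2 (0.0579) or control replicate 3 (0.0513). The receptor chains that IL-18 uses were Il18r1 at 0.01 and Il18rap at 0.49, the latter at 4.33, 4.82, 4.07 and 4.00 against 3.62 to 3.96 in the controls (adjusted p = 0.0926).

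**Figure D3:**
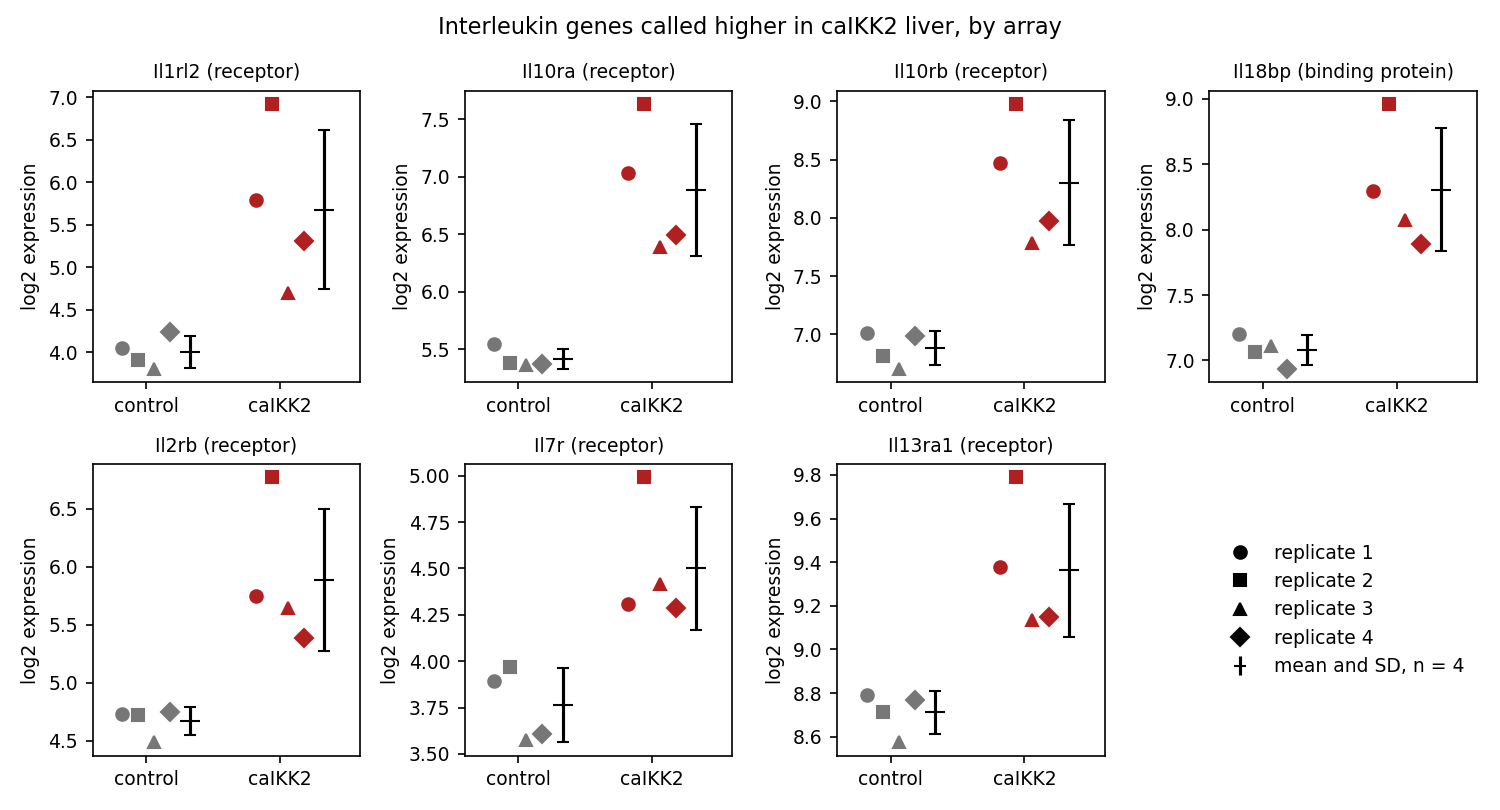
Log2 expression of the 7 called genes in each array, with marker shapes for the replicate number and bars for mean and SD (n = 4 per group); each panel has its own vertical axis. In every panel all caIKK2 points lie above all control points, and caIKK2 replicate 2 is the highest.

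The remaining receptor chains gave 0 calls. Il17ra, the chain shared by receptors of several IL-17 cytokines, read 7.51, 8.13, 7.05 and 7.17 in caIKK2 liver and 6.90, 6.23, 6.66 and 7.06 in the controls, a difference of 0.76 in log2 units that did not pass (adjusted p = 0.0811). The lowest caIKK2 liver stands just under the highest control. Il17rb, Il17rc, Il17rd and Il17re lay between -0.24 and 0.05. Il22ra1, the chain that lets epithelial cells and hepatocytes respond to IL-22, stood at 0.47 (adjusted p = 0.159). A second, dimmer probe set of Il22ra1 stood at 0.85 (adjusted p = 0.0975), with caIKK2 replicates 1 and 2 at 6.48 and 6.95 and replicates 3 and 4 at 5.57 and 5.4. Il20rb stood at -0.36, and its other probe sets at -0.25 and -0.12. The receptor chains of the IL-12 family lay between -0.28 and 0.16, and Il3ra, Il5ra and Il31ra between -0.14 and -0.04. Il20ra and the soluble IL-22 decoy Il22ra2 stood at -0.16 and -0.19. Il1rapl1 and Il1rapl2, relatives of Il1rap best known from neurons, stood at -0.22 and -0.16. Outside the 6 called chains, the groups did not overlap for Il4ra and Il18rap on the higher side and for Il1rap, Il1rapl1 and Il17re on the lower side. Together 8 of 34 receptors were separated as higher and 3 as lower, beside 11.2% of all genes in each direction.

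Among the ligands Il23a had the largest value. Il23a encodes the p19 subunit of IL-23, which sustains T cells that make IL-17. It read 4.92, 7.72, 4.84 and 5.82 in caIKK2 liver and 4.28, 4.73, 4.43 and 4.12 in the controls. The groups do not overlap, but caIKK2 replicate 2 is far above the rest, and the mean of 5.82 ± 1.34 (SD, n = 4) gave a log2 fold change of 1.43 that did not pass (SE 0.54, adjusted p = 0.107). When 1 array was left out it ranged from 0.80 to 1.76. Il12b, its partner subunit, stood at -0.11, and the receptor chains Il23r and Il12rb1 at -0.15 and -0.28.

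Il33, an alarmin released by damaged tissue, read 5.96, 6.19, 5.26 and 5.93 in caIKK2 liver and 5.24, 5.24, 5.18 and 5.53 in the controls. Replicate 3 lies within the controls, and the log2 fold change was 0.54 (adjusted p = 0.0885). Without that array the value was 0.73, which passed (0.0134). Il16, a chemoattractant of CD4+ cells, stood at 0.23 without overlap between groups (adjusted p = 0.0978) and passed after quantile normalization (0.0451).

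The ligands of the IL-17 family, which recruit neutrophils and guard epithelia, had log2 fold changes below 0 in 6 of 6 and a median of -0.27, beside 61.6% below 0 over all genes. All but Il25 read under the middle of all genes in the controls. Of all genes in that range 7595 of 9969 were below 0, with a median of -0.12. Il25 stood at -0.40, Il17b at -0.35, Il17c at -0.27, Il17d at -0.26, Il17a and Il17f each at -0.21, with adjusted p from 0.0739 to 0.214. Il25 passed without caIKK2 replicate 3 (0.0401) and Il17b without caIKK2 replicate 4 (0.0469). Over the 11 ligands and receptors of this family the median was -0.21 as deposited, -0.16 after quantile normalization and -0.13 with arrays centred. Il27 and Il31 stood at -0.26 and -0.33 and did not pass. The other ligands, Il3, Il5, Il9, Il11, Il12a, Il19, Il20, Il21 and Il24, lay between -0.28 and -0.02, with adjusted p of 0.202 or more. The groups did not overlap for Il15, Il16 and Il23a on the higher side and for Il17d, Il17f and Il9 on the lower side, 3 of 32 in each direction beside 11.2% of all genes. Il9 was chosen for naming after its values were seen.

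**Figure D4:**
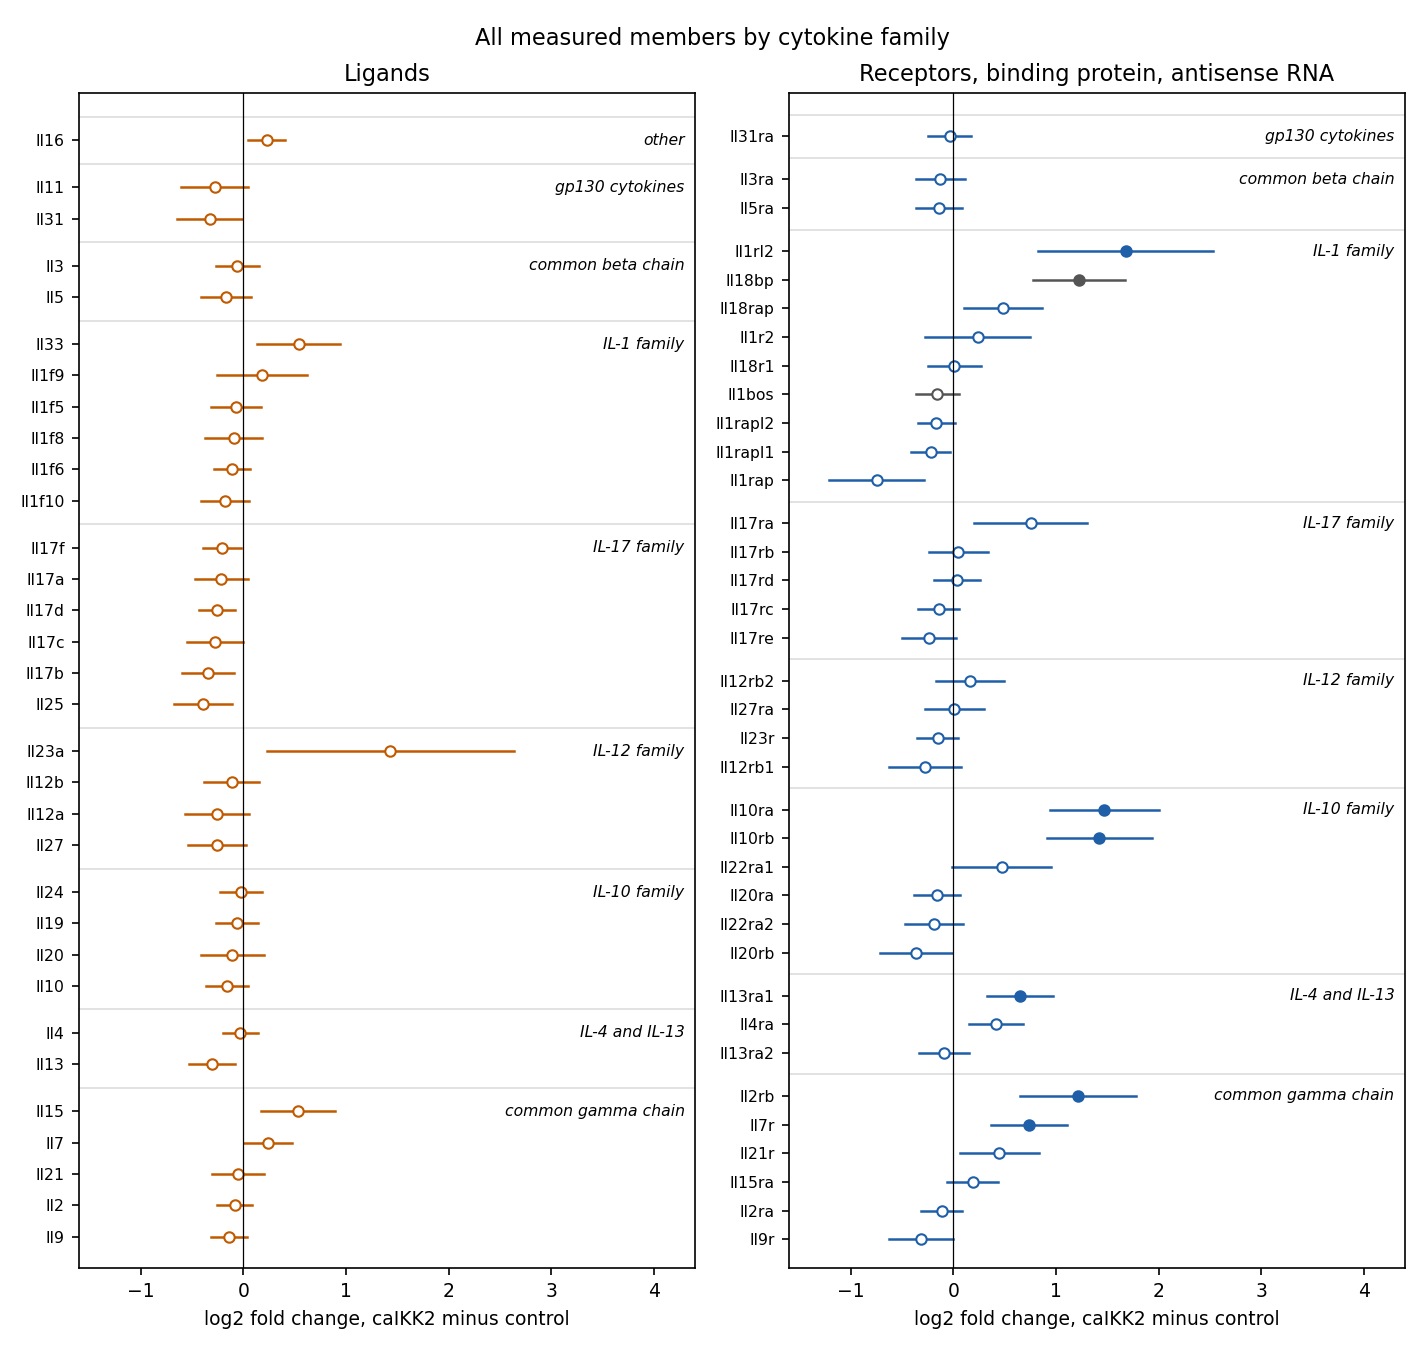
Log2 fold change (caIKK2 minus control) with its 95% interval from limma for all 68 genes, grouped by cytokine family, ligands on the left and receptors and others on the right; filled points passed at an adjusted p under 0.05. In the common gamma chain, IL-4 and IL-13 and IL-10 families the filled points are receptor chains, while the ligands lie between -0.31 and 0.53.

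Genes that work with these receptors were read from a list of 50, of which 45 were measured. Of these 8 rose, 0 fell and 37 did not pass, with a median log2 fold change of 0.31. Over all genes 4.67% were called higher and the median was -0.07. In the controls 32 of the 45 read at or above the middle of all genes. Among all genes of that range 6.44% were called higher, with a median of 0.03. Irak3, a brake on signalling from IL-1 and Toll-like receptors, had the largest rise, 3.20 (SE 0.28, adjusted p = 0.000697). It read 8.02 to 9.23 in caIKK2 liver and 5.23 to 5.59 in the controls. Csf2rb, the beta chain shared by the receptors of IL-3, IL-5 and GM-CSF, rose by 1.81, and its paralog Csf2rb2, which serves IL-3, by 1.23. Because these paralogs are close in sequence, their probe sets may share signal. The private chains Il3ra and Il5ra stood at -0.12 and -0.14 in the same arrays. Ifngr1 and Ifngr2, the chains of the interferon gamma receptor, rose by 1.56 and 1.27, while Ifng stood at -0.15 and did not pass. Jak2 rose by 1.38, the NF-kB cofactor Nfkbiz by 0.88 and the phosphatase Ptpn6, which damps cytokine signalling, by 0.84. Jak1 stood at 0.58 (adjusted p = 0.0506), Stat6, which acts below the IL-4 receptor, at 0.68 (0.0637) and Stat4, below the IL-12 receptor, at 0.66 (0.0690). Without caIKK2 replicate 1 or control replicate 2 the count of rises was 3, and without caIKK2 replicate 4 it was 13.

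Most markers of macrophages, monocytes and dendritic cells, and fewer of T and NK cells, were higher in the same livers. Of 10 Kupffer cell and macrophage markers 7 rose, and the list's mean log2 level was 9.01 to 10.3 in caIKK2 liver against 7.88 to 8.26 in the controls. All 5 monocyte markers measured rose (6.62 to 8.32 against 4.77 to 4.95), as did 4 of 6 dendritic cell markers (5.48 to 5.76 against 4.76 to 5.03). Of 8 T cell markers 3 rose (5.12 to 5.68 against 4.79 to 4.88), and of 8 NK and innate lymphoid markers 2 (4.99 to 5.87 against 4.57 to 4.69). Among the T cell markers Cd3g rose by 1.53, Cd8b1 by 0.57 and Cd2 by 0.55. Cd3d, Cd3e, Cd4, Cd5 and Cd8a lay between -0.03 and 0.71 and did not pass, with Cd3e at 0.24 and Cd4 at 0.11. Of the NK and innate lymphoid markers Nkg7 rose by 1.52 and Klrd1 by 0.98. Gzma, Gzmb, Klrb1c, Ncr1, Eomes and Rora lay between -0.13 and 0.81 and did not pass. Of the B cell, neutrophil and mast cell markers 0 of 4, 0 of 7 and 0 of 5 passed in limma's test, with 0, 0 and 1 at an unadjusted p under 0.05, and all 16 read under the middle of all genes in the controls. All 5 endothelial markers read above it and 0 passed (2 at an unadjusted p under 0.05), while 2 of 6 stellate cell markers rose. The part of these cells in the receptor values was not tested.

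**Figure D5:**
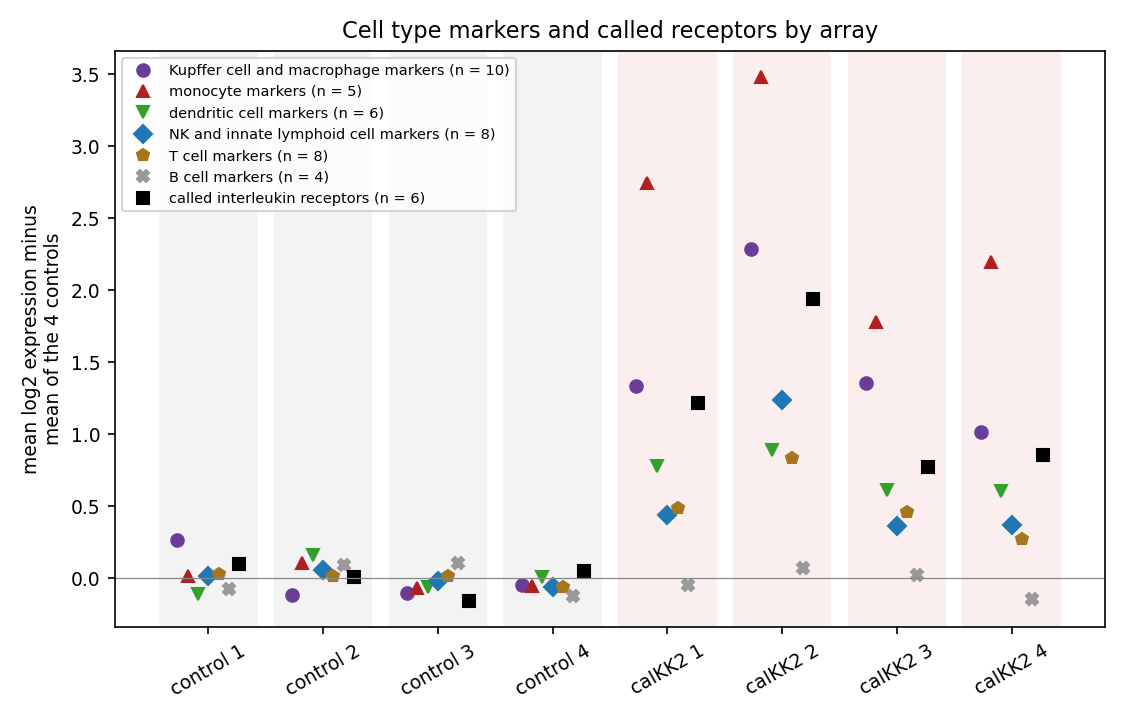
Mean log2 expression of marker lists and of the 6 called receptors in each array, minus the mean of the 4 controls; points are side by side within an array. The called receptors stood at 1.22, 1.94, 0.77 and 0.86 in caIKK2 replicates 1 to 4; replicate 2 is the highest of the caIKK2 arrays for every list drawn, and the 4 caIKK2 values of the B cell markers lie among those of the controls or just below.

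The caIKK2 livers differed among themselves. All 7 called genes, and 17 of the 34 receptors, had their highest value in caIKK2 replicate 2. Among the 32 ligands replicate 2 was the highest in 6, replicate 3 in 12, replicate 4 in 11 and replicate 1 in 3. Over all 68 genes, replicates 1 to 4 were the highest in 7, 24, 20 and 17. Replicates 1 and 2 both lay above 3 and 4 in 6 of the 7, the exception being Il7r. Over the 932 genes called higher, replicate 2 was the highest in 84.9%, and replicates 1 and 2 both stood above 3 and 4 in 86.7%. Ikbkb itself read 8.995 and 9.09 in replicates 1 and 2 and 8.38 in both others. Without replicate 2 all 7 genes were still called, and Il1rap was added as lower.

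The 2 genes on either side of each called gene were read in RefSeq gene order. Il10rb had the most called neighbours, and 3 of the 4 around it rose, beside 4.67% of all genes. Il10rb lies among Ifnar2, Ifnar1 and Ifngr2, which encode chains of interferon receptors from the same receptor class. Ifnar2 rose by 0.65 (adjusted p = 0.0495), Ifnar1 by 0.48 (0.0443) and Ifngr2 by 1.27 (0.00759). Ifnar2 and Ifnar1 lie close to the threshold, and their calls in the alternative settings were not read. Olig1, the other neighbour, stood at -0.42 and did not pass (0.103). Around Il1rl2 the measured interleukin receptor genes did not pass, with Il1r2 at 0.24 and Il18r1 at 0.01. The measured genes among the 2 on either side of Il18bp, Il2rb and Il10ra did not pass. Next to Il13ra1, Dock11 rose by 1.84 (adjusted p = 0.0182), and next to Il7r, Capsl rose by 1.08 (0.0399). The other measured neighbours of Il13ra1 and Il7r did not pass. These neighbours were looked up after the called genes were known.

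Promoter windows of the called genes were read from RefSeq (GRCm38.p6), which held 4 of the 7, and their 250 bases before the annotated start are shown because these genes rose together. Capitals mark a match to TTCNNNGAA, the core of a Stat site, searched on both strands, on which it reads the same. The NF-kB consensus was taken as GGGRNWYYCC, where R is A or G, W is A or T, Y is C or T and N is any base. Searched on both strands as well, it had 0 matches in these 4 windows. Looser forms of the NF-kB site were not searched.
Il1rl2, chr1:40324339-40324588, plus strand: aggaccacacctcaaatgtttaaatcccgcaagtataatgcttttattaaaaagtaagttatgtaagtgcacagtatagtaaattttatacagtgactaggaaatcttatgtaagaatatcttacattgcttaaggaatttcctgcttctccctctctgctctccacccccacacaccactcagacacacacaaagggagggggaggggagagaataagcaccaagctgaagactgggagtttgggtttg
Il7r, chr15:9529877-9530126, minus strand: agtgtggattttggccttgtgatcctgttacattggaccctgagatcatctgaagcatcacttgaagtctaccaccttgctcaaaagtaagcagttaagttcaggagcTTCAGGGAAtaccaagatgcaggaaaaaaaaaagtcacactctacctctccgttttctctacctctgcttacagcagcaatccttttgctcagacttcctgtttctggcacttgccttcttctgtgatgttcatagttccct
Il13ra1, chrX:36111858-36112107, plus strand: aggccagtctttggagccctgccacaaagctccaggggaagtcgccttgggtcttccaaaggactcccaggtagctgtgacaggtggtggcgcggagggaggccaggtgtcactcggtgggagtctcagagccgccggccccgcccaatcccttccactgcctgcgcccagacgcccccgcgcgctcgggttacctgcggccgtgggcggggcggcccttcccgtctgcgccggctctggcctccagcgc
Il18bp, chr7:102018233-102018482, minus strand: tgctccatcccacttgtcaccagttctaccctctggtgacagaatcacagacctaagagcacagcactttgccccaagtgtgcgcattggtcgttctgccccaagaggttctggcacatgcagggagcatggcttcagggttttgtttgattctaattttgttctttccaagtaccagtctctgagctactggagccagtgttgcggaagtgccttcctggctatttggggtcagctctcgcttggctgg
The Il7r window holds the only match, which begins 142 bases before the start. The windows differ in composition, with 41.2% G and C for Il1rl2, 44.0% for Il7r, 52.4% for Il18bp and 70.8% for Il13ra1, beside a median of 52.4% over 32851 windows of 27025 genes. In the full windows, which add 50 bases after the start, TTCNNNGAA was found in 11 of 62 windows of 52 members (17.7%) and in 8.30% of all windows. The NF-kB consensus was found in 5 of 62 (8.06%), those of Il12rb2, Il16, Il19, Il2ra and Il4ra, and in 4.51% of all windows. With only the 250 bases before the start it was found in 3 of 62 (4.84%), beside 3.90% of all windows. Of the 5 genes with a match in the full window 0 were called, beside 4 of the 52 members with a window and 6.34% of all genes. At these shares 0 of 5 says little about matches and calls. A match is a stretch of letters and was not tested as a binding site.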

How the data were processed

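Per the submitters' processing notes, the authors processed the arrays with Affymetrix Expression Console and deposited 1 log2 value for each probe set on each array. Version, settings and normalization: not given in the sources used here. Log base 2 was taken from the range of values (1.76 to 14.1). No scanner files or detection calls were used, and signal over background is unknown. Of 35556 probe sets, 21789 name 1 symbol and entered the fit; 1621 name several and 12146 none. Symbols of all 68 members matched RefSeq by Entrez identifier, with 0 changed.

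Limma 3.58.1 (R 4.3.3, the data.table package, 1.17.8) fitted the group as the only term to the 21789 probe sets, with empirical Bayes moderation (prior degrees of freedom 3.77), two-sided tests and Benjamini-Hochberg adjustment over all of them; a gene passed at 0.05. Fold changes are log2, caIKK2 minus control. Each gene is represented by its brightest probe set. Roles follow the symbol. The rule for named members takes every called gene, then the smallest p until 30, the 5 brightest of each role, and the partners of called genes, 41 in all. The members, lists and roles were chosen with earlier results of these data known. Of the steps, the limma fit was tested on simulated data with known changes added, and the others were not. Figures and sequence searches used Python 3.11.15, pandas 2.3.3, scipy 1.17.1 and matplotlib 3.10.9. Alternatives were 2 scalings, 2 filters on dim probe sets, all probe sets, other rules for a gene's probe set, other limma options, the replicate block and leaving out each array.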

Additional observations from a re-analysis of the deposited data

Results flagged for a closer look

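The following single arrays lay far from the other 3 of their group, by a gap that is large against the group's range. They were found among 82 groups of 4 arrays (41 named genes in caIKK2 and control), of which 9 stood out; chance alone marks about 1 in 20. Il10ra in control replicate 1 was at 5.54, whereas the remaining controls were at 5.36 to 5.38. Il2rb read 4.49 in control replicate 3 against 4.72 to 4.75. Il4ra read 7.56 in control replicate 2 against 7.87 to 7.90. Il15 read 4.92 in caIKK2 replicate 2 against 4.21 to 4.297. Il1f5 read 3.82 in caIKK2 replicate 2 against 4.14 to 4.17, and Il1f10 read 3.68 in caIKK2 replicate 3 against 3.53 to 3.56. Il17rc read 7.38 in control replicate 2 against 7.13 to 7.17, Il17re read 5.47 in control replicate 3 against 5.001 to 5.036, and Il4 read 3.85 in control replicate 1 against 3.87 in the others. The gaps of Il4, Il1f10 and Il10ra are under 0.2 on the log2 scale.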

How the results depend on the processing

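Over 19 alternatives, 676 of 737 values of the 41 named members kept their direction and side of the threshold, 39 lost and 14 gained a call, and 8 changed sign. The called members numbered 7, and 3 when all deposited probe sets were tested or with limma's treat against a 1.2-fold change (receptors 6, and 2 under both); they ranged from 0 to 12, and receptors from 0 to 8, when 1 array was left out. The ligand count of 0 became 1 after quantile normalization, with array weights and with the replicate block, and 0 to 3 without 1 array. The count of all called genes was 1265, and 715 with arrays centred, 479 over all probe sets, 279 with treat, and 202 to 2580 without 1 array; partners numbered 8, and 5 with treat, or 3 to 13. Medians of ligands and receptors were -0.0315 and 0.0887 with arrays centred. Without the dimmest 30% of probe sets (12 and 21 genes left) they were -0.26 and 0.19. Without the dimmest 50% (2 and 12 left) they were 0.071 and 0.30. The filters left the fold change of each kept gene unchanged, so the shifts under them reflect which genes remained. When 1 array was left out the medians of ligands and receptors ranged from -0.16 to -0.09 and from -0.04 to 0.01. Signs changed for Il4 (0.0606 after quantile normalization, 0.0484 centred, 0.0042 with array weights, 0.0025 without caIKK2 replicate 1 and lowest, -0.0668, without caIKK2 replicate 4), Il1f5 (0.027, 0.0076, and from -0.139 to 0.0106 without 1 array) and Il1f9 (from -0.0193 without caIKK2 replicate 2 to 0.3372 without caIKK2 replicate 1); the cause was not tested. With only the 250 bases before the start, the NF-kB consensus stood in 3.90% of all windows and 4.84% of the members' (8.06% in the full windows), and TTCNNNGAA in 7.02% and 14.5% (17.7%). Correlations between the deviations of same-numbered arrays of the groups were mixed (0.28, -0.03, 0.27 and -0.13). Those of differently numbered arrays ranged from -0.26 to 0.18, so the values for replicates 1 and 3 were the largest. The labels name no paired design, and the numbers were not taken as pairs. The replicate block called 8 members, the 7 and Il15. Each fit without 1 array has fewer samples. The called members fell to 0 without caIKK2 replicate 1 and rose to 12 without caIKK2 replicate 3. The cause of the lost calls was not tested. Calls at low signal, such as Il7r and Il1rl2 in the controls, are limited because signal over background is unknown. The alternative pseudocount planned for linear values was not run, since the values are on a log scale.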
